A study of Gallus gallus with 12 samples.

Results

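Between Hamburger-Hamilton stage 30 (HH30) and stage 34 (HH34), 5559 genomic regions of the chicken embryo eye gained an ATAC-seq peak in both the optic fissure margin (OFM) and the dorsal retina. These HH34-only regions were chosen by the peak calls themselves. All peaks of the 4 lists sharing 1 bp or more were merged into union regions. A union region was a member if it lay on chromosomes 1 to 28, had a peak in both HH34 lists and had none in either HH30 list. The members made up 4.64% of the 119805 union regions on those chromosomes, and the whole series held 127749 union regions. The mirror set, with a peak in both HH30 lists and none at HH34, held 6906 regions or 5.76%. The member count and both shares restate the rule and are no finding.

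All embryos were wildtype Hy-Line chickens. The 4 groups were OFM at HH30, dorsal retina at HH30, OFM at HH34 and dorsal retina at HH34, each with 3 biological replicates, and every replicate pooled dissected tissue of 10 embryos. Peaks were called once per group over its replicates, so each region has 1 value per group, with no replicate spread and no test between groups. The tissues are bulk dissections, so a change in the mix of cells and a change within a cell type cannot be told apart. The labels state at least 189000000 reads for every library, and depth within the peaks is unknown because the lists hold no read counts. Lists differed in length, from 101452 peaks in dorsal retina at HH34 to 108689 in OFM at HH30.

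The optic fissure is a transient gap on the ventral side of the optic cup, and its margins meet and fuse in the chick embryo during the period these stages span. Dorsal retina has no fissure, so a region gained in both tissues is shared by fusing and non-fusing retina. Over the same period retinal progenitors leave the cell cycle and become neurons. ATAC-seq uses the transposase Tn5 to insert adapters into accessible DNA, and peaks mark open promoters, enhancers and other regulatory sites. The chicken genome has a few large chromosomes and many very small ones, and the small ones are rich in genes and in G and C bases.

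The members were mostly short and weak. Their median width was 279 bp (quartiles 211 and 392 bp), against 237 bp in HH30-only regions and 576 bp in regions with a peak in all 4 lists. Together they covered 1.84 Mb. Strength was read as the percentile of a peak within its own list by the authors' area score, where 100 is the highest score. An area rises with the width of a peak as well as with its signal, so short and weak are partly the same measure. Regions matched by this percentile are thus not matched in width or in signal at the summit. The median percentile of members was 16.3 in the OFM list and 23.7 in the dorsal list. Regions in all 4 lists had medians of 61.9 and 60.4 in the same lists. HH30-only regions were about as weak in their own lists, with medians of 20.8 in OFM and 15.4 in dorsal retina at HH30. The authors' −log10 q at the summit had a median of 4.19 in OFM and 4.63 in dorsal retina, against 9.93 and 9.51 for regions in all 4 lists. The lower 50% of both HH34 lists held 5023 members (90.4%), and the upper 50% of both held 130.

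Absence at HH30 went with low strength at HH34. Of the 83858 regions with a peak in both HH34 lists, 6.63% had no HH30 peak. In the lowest 10 percentiles this share was 31.8% (1030 of 3238 regions), and between percentiles 40 and 50 it was 4.45%. Between percentiles 80 and 90 it was 0.0644%, or 6 of 9312 regions. None of the 9577 regions in the top 10 percentiles lacked an HH30 peak (upper Wilson bound 0.0401%, for counting error alone). The mirror showed the same fall. Of regions in both HH30 lists, 48.6% in the lowest 10 percentiles and 4.52% between percentiles 40 and 50 had no HH34 peak, and none of 9584 between 80 and 90 lacked one. Wide regions score higher by area, and they are more easily touched by a peak of the other stage. An overlap of 1 bp with such a peak of any rank excludes a region. The part of width in both falls was not tested. Just outside the rule lay 4146 regions that had a dorsal peak at HH30 but no OFM peak, and 1276 with the opposite. Their HH30 peak had a median percentile of 13.9 in dorsal retina and 13.3 in OFM, and an area score as low as 200.024 and 200.028 beside list minima of 200.009 and 200.005. The weakest members also lay near the limit, with area scores in OFM at HH34 of 200.093, 200.108 and 200.227 beside a list minimum of 200.002. A missing HH30 peak thus says that a call was not made there, and says nothing of signal under the limit.

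**Figure D1:**
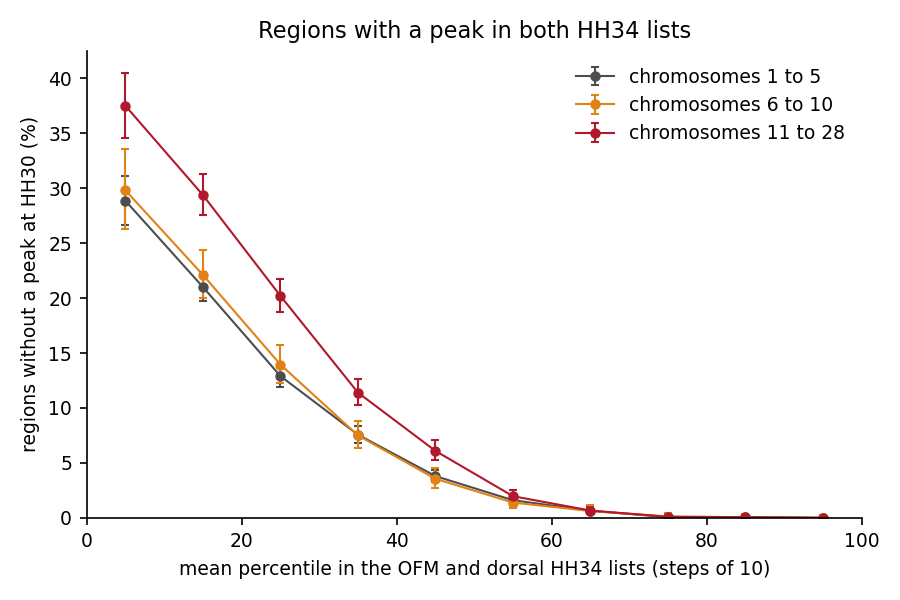
Share of regions with a peak in both HH34 lists that had no peak at HH30 (y, percent), by mean percentile in the OFM and dorsal HH34 lists (x, steps of 10), for 3 classes of chromosomes. Bars are 95% Wilson intervals, which cover counting error alone. The share falls with strength in each class, and chromosomes 11 to 28 lie above the others up to percentile 50.

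The strongest members were ordered by the worse of their OFM and dorsal ranks. The first and the third were a pair on chromosome 5, at 49328135 to 49328954 and at 49326755 to 49327916, only 218 bp apart. The former had −log10 q of 12.5 in OFM and 11.8 in dorsal retina, and its summit fell on the same base, 49328755, in both tissues. The latter had values of 13.2 and 13.5, with summits 7 bp apart. No HH30 peak of either tissue lay within 6142 bp of the former, and the nearest region with a peak in all 4 lists, 10752 bp from the latter, moved up by 23.0 percentiles in OFM and by 16.6 in dorsal retina. On the other side, the region 6142 bp from the former lacked only a dorsal HH34 peak and changed by −50.8 percentiles in OFM. The pair thus lay between a region that gained and a region that lost.

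The second strongest member, on chromosome 7 at 25643591 to 25644539, had the highest −log10 q of the first 5 in dorsal retina, 17.7, and 15.4 in OFM. It differed between tissues at HH30: an OFM peak lay 166 bp away, while the nearest dorsal peak lay 16634 bp away. The region beside it had an OFM peak at both stages but a dorsal peak only at HH34, and it rose by 53.2 percentiles in OFM. This locus thus had some HH30 signal next to it in one tissue.

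Members were not equally strong in both tissues at the top of the list. On chromosome 5 at 38015001 to 38016527, the member stood at percentile 75.5 in OFM and 89.0 in dorsal retina, with −log10 q of 8.44 and 15.1. It was also the widest of the 10 strongest, at 1527 bp. The member on chromosome 2 at 64979245 to 64980329 had the opposite order, with percentile 82.2 in OFM and 72.1 in dorsal retina. Its nearest HH30 peak lay 14294 bp away, and the region there, present in all 4 lists, went down by 19.1 percentiles in OFM (change −19.1) and by 15.7 in dorsal retina (change −15.7). Neighbours of strong members therefore did not always move with them.

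The remaining strong members lay on chromosomes 3, 11, 12 and 24. Chromosome 24 had a pair of them, at 2330315 to 2331240 (percentiles 83.7 in OFM and 76.7 in dorsal retina) and at 4782859 to 4783501 (76.7 and 71.7). In both, the summits of the tissues coincided to the base. The chromosome 11 member at 5165819 to 5167274 stood at 79.8 and 80.3, with no HH30 peak within 7345 bp. The chromosome 12 member at 10041664 to 10042251 stood at 72.0 and 74.4 and had another member 406 bp away. The chromosome 3 member at 51209679 to 51210541 stood at 71.6 and 80.8, and no other member lay within 248362 bp of it.

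Some strong members stood far from any HH30 peak. Among the 130 in the upper 50% of both HH34 lists, the most remote lay on chromosome 1 at 158384307 to 158384675, 42805 bp from the nearest HH30 peak. It had −log10 q of 11.4 in OFM and 12.5 in dorsal retina and the same summit base, 158384546, in both. Next came chromosome 4 at 77119902 to 77120521, 30123 bp away, with −log10 q of 11.1 and 15.6. The third, on chromosome 1 at 129275519 to 129275896, was 26911 bp away, with 7.67 and 11.8, and its summits lay 168 bp apart. All 3 had a higher percentile in dorsal retina than in OFM.

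The OFM and dorsal peaks of a member marked nearly the same base. Their summits lay a median of 5 bp apart and coincided exactly in 22.1% of members, and 89.9% were within 50 bp. Weak regions with a peak in all 4 lists (mean percentile 0 to 25) had the same median of 5 bp and 22.7% of coincident summits. Members of that strength had 21.1%. The spread was wider in members. In that class, 91.1% of members and 94.3% of regions in all 4 lists had summits within 50 bp. At mean percentile 25 to 50 these shares were 88.3% and 93.1%, and coincident summits made up 22.9% and 27.0%. At 50 to 75, 83.0% of members and 92.2% of regions in all 4 lists were within 50 bp. In the same classes at HH30, the shares within 50 bp were 94.8%, 90.5% and 89.2% of HH30-only regions. For regions in all 4 lists they were 93.5%, 92.9% and 92.6%. From percentile 25 to 75 a wider spread was thus not particular to members.

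In strength they leaned toward dorsal retina. Of the 5559 members, 3859 (69.4%, Wilson interval 68.2 to 70.6%) had a higher percentile in dorsal retina than in OFM, with a median difference of 6.10 percentiles (quartiles −1.91 and 14.5). Among regions in all 4 lists, 40.8% were higher in dorsal retina at HH34, with a median difference of −0.58. The contrast was also present at matched strength at HH34. At mean percentile 0 to 25, 65.4% of members and 37.0% of regions in all 4 lists were higher in dorsal retina, and at 25 to 50 these shares were 76.5% and 39.5%. The comparison set itself differed between stages. At HH30, 61.5% and 54.0% of regions in all 4 lists were higher in dorsal retina in the same classes of HH30 percentile. Among members, chromosomes 1 to 5 (68.5%), 6 to 10 (67.8%) and 11 to 28 (71.1%) differed little. Regions in all 4 lists varied more, with 33.6%, 38.9% and 53.5%, so members stood closest to them on chromosomes 11 to 28. The HH30-only set leaned the other way, with 35.9% higher in dorsal retina at HH30 and a median difference of −4.40. The order also appeared in regions of a single list. Of the 119805 union regions, 4588 were in the dorsal HH34 list alone and 2094 in the OFM HH34 list alone. The OFM HH30 list alone held 7908 and the dorsal HH30 list alone 3168. A call in a single list also depends on the limit of the calls in the other lists. Intervals cover counting error only, and neighbouring regions are not independent. Across members the percentiles of both tissues had a Pearson r of 0.62 and a Spearman rho of 0.55, given as a description over points that share the same 2 lists.

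**Figure D2:**
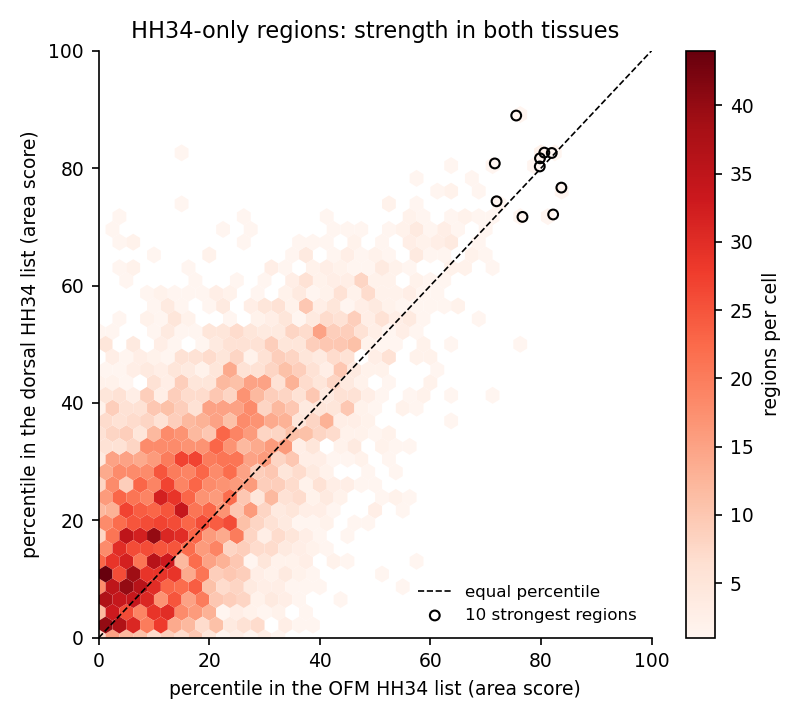
Percentile of each of the 5559 HH34-only regions in the OFM HH34 list (x) and in the dorsal HH34 list (y), by area score, as counts per hexagonal cell. Circles are the 10 strongest regions and the dashed line marks equal percentiles. Most regions lie low in both lists and 69.4% lie above the line.

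Most members (79.9%) lay within 5000 bp of an HH30 peak. No distance was computed for all union regions or for random positions. The median distance to the nearest HH30 peak was 1456 bp (quartiles 508 and 3943.5 bp), and 2275 members (40.9%) lay within 1000 bp of one. This was not particular to members, since regions in the dorsal HH34 list alone had a median of 1304.5 bp. Those in the OFM HH34 list alone had 1410.5 bp. HH30-only regions lay 2577.5 bp from the nearest HH34 peak in the median, and 30.3% were within 1000 bp. On these chromosomes the HH34 lists held fewer peaks, 98476 in OFM and 95337 in dorsal retina, against 102112 and 100023 at HH30. The pooled medians also reflect the unlike spread of both sets over chromosomes. On chromosomes 11 to 28 the median was 1096 bp for members and 1633 bp for HH30-only regions. On chromosomes 1 to 5 it was 1981.5 and 3115.5 bp. Strength differed little with distance. Members within 500 bp of an HH30 peak had median percentiles of 15.6 in OFM and 22.2 in dorsal retina, and the 958 members at 5000 to 20000 bp had 16.8 and 24.4. The 157 members beyond 20000 bp were narrower than those within 500 bp, with a median of 250 bp against 295 bp. When peaks were joined only at 50% reciprocal overlap, the median distance was 495 bp, since an HH30 peak with less overlap then no longer excludes a region. The closest member, on chromosome 15 at 7928623 to 7928826, had a dorsal HH30 peak 66 bp away.

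Most regions that were open at both stages moved with the members right beside them, though this depended on how peaks were joined. For a region with a peak in all 4 lists, change was taken as its HH34 percentile minus its HH30 percentile in the same tissue. Over all 72877 such regions the median change was −0.61 in OFM and −1.39 in dorsal retina, and 30.7% were higher at HH34 in both tissues. Of the 1308 within 500 bp of a member, 65.5% were higher in both (Wilson interval 62.9 to 68.0%). When peaks were joined only at 50% reciprocal overlap, this share was 45.5% of 2150 regions. The values that follow are for the main setting. The 1308 regions had a median percentile of 61.1 in OFM and 62.9 in dorsal retina at HH30, and 68.5 and 70.1 at HH34. The median change was 4.44 in OFM and 3.37 in dorsal retina.

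The change faded with distance. It was 1.51 in OFM and 0.83 in dorsal retina between 500 and 2000 bp from a member, and 0.79 and 0.37 between 2000 and 5000 bp. In the same order, it was 0.57 and −0.11, then −0.08 and −0.82 on chromosomes 1 to 5. On 6 to 10 it was 1.72 and 0.29, then 0.12 and −0.04, and on 11 to 28 it was 2.19 and 1.75, then 2.44 and 1.66. Over 5 Mb from a chromosome end it was 0.46 and −0.23, then −0.05 and −0.62. Among these classes, only chromosomes 11 to 28 thus had a rise in both tissues between 2000 and 5000 bp. Over all chromosomes, the change beyond 50000 bp was −1.44 and −2.66, and 8084 of those 36794 regions were higher in both tissues. Near HH30-only regions the sign was opposite, with −3.59 in OFM and −4.99 in dorsal retina within 500 bp, where 12.5% were higher in both. The share within 500 bp of a member was 60.5% on chromosomes 1 to 5, 63.8% on 6 to 10 and 69.9% on 11 to 28. It was 57.7% for regions over 5 Mb from a chromosome end. In each of 4 classes of mean percentile it lay between 53.7% and 69.1%, and that for regions beyond 50000 bp between 18.3% and 24.6%. Members and neighbours were read from the same 4 lists, so both describe the same libraries.

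**Figure D3:**
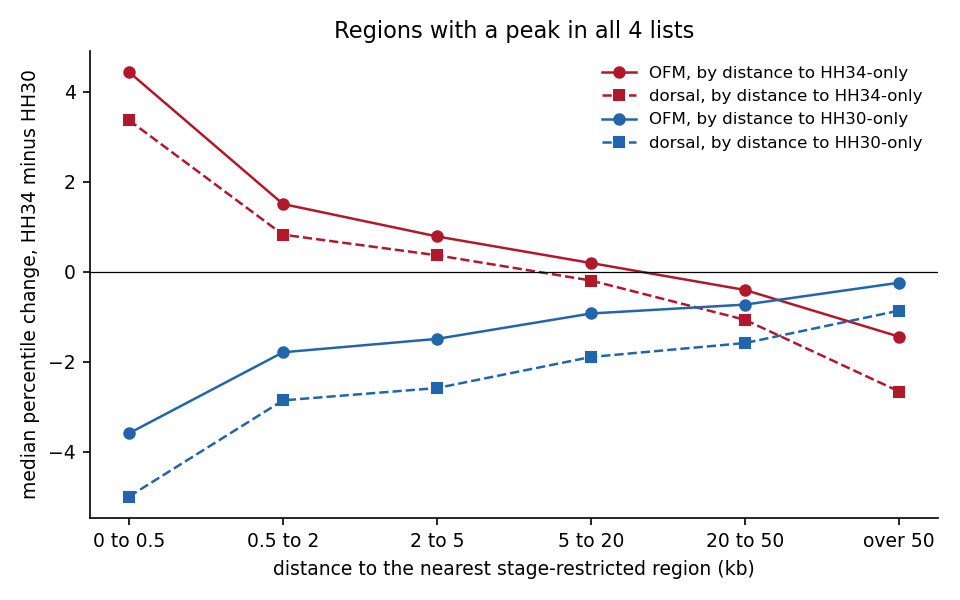
Median change of percentile from HH30 to HH34 (y) for regions with a peak in all 4 lists, by distance to the nearest HH34-only region (red) or HH30-only region (blue) in kb (x). Circles with full lines are OFM and squares with dashed lines are dorsal retina. Within 0.5 kb of HH34-only regions the change is 4.44 and 3.37, and within that distance of HH30-only regions it is −3.59 and −4.99.

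The next region along the chromosome was also more often gained than lost. Of the 11103 regions adjacent to members, 2169 (19.5%) had a peak in one or both HH34 lists and none at HH30, against 10.2% over all adjacent regions. Regions with peaks at HH30 alone made up 9.22%, or 1024, against 35963 of 239554. Other members made up 10.4% of adjacent regions, beside the 4.64% of union regions that were members. HH30-only regions showed the mirror of this. Of the regions adjacent to them, 22.3% had peaks at HH30 alone and 6.47% at HH34 alone. Other HH30-only regions made up 9.63%, beside 5.76% of union regions. The median distance from one member to the next was 25602 bp, and 32.8% had another within 10000 bp, against 21.6% of HH30-only regions, which were more numerous. Within a wider distance the shares were alike, at 79.1% and 80.4%. Spacing was not computed by class of chromosomes, and chromosomes 11 to 28 held 39.3% of members but 19.6% of HH30-only regions.

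Uninterrupted runs of members, with no other union region between them, held 1046 members in 471 runs, or 18.8% of members. The share of HH30-only regions in such runs was nearly the same, 18.1%. The longest had 7 members on chromosome 2, from 149630525 to 149651368, only 30665 bp before the last peak of the chromosome. Its members ranged from percentile 6.67 to 57.9 in OFM and from 9.15 to 65.4 in dorsal retina, and the nearest HH30 peak lay 10577 bp away. The 4 runs of 5 members lay on chromosomes 1 (1047724 to 1084674), 4 (1705663 to 1718075), 18 (11257864 to 11285464) and 23 (7589 to 14150). The run on chromosome 23 started 7588 bp from the first base, and that on chromosome 18 ended 87597 bp before the last peak. The runs on chromosomes 1 and 4 began 1047723 and 1705662 bp from the start. The longest runs of HH30-only regions had 5 regions and lay 2878885 and 5618225 bp from an end, on chromosomes 13 and 7.

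The densest window of 500 kb lay on chromosome 24, from 1896308 to 2396307, and held 40 members among 201 union regions (19.9%). It held no HH30-only region. Of its 94 regions in all 4 lists, 70 were higher at HH34 in both tissues, with a median change of 8.01 in OFM and 6.11 in dorsal retina. The member at 2330315 to 2331240 on this chromosome, described above, is in it. The densest windows of 3 other chromosomes also held almost no HH30-only regions. Chromosome 25 had 34 members of 100 regions and no HH30-only region, chromosome 11 had 32 of 117 with 1, and chromosome 1 had 29 of 110 with none, in the window from 575561 to 1075560. All these windows were chosen for their member count, so their high member shares follow from the choice. Over the whole chromosomes, HH30-only regions made up 2.33% of union regions on chromosome 24, 0.716% on 25, 5.84% on 11 and 6.51% on 1. The window on chromosome 1 lay near its start, and that on chromosome 11 reached its last peak. On chromosome 1, HH30-only regions made up only 0.983% within 1 Mb of an end and 0.990% between 1 and 2 Mb. Their absence from the chromosome 1 window was thus near what its ends had in general. The window with most HH30-only regions, on chromosome 8, held 18 of them among 88 union regions and no member.

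Members were unevenly spread over the chromosomes. Chromosomes 11 to 28 held 39.3% of members, 30.0% of union regions and 19.6% of HH30-only regions. Chromosomes 1 to 5 held 44.2%, 51.8% and 61.0%. The excess on chromosomes 11 to 28 was not particular to members. Of the 4588 regions in the dorsal HH34 list alone, 1845 lay there, a share about as high as that of members. Of the 2094 in the OFM HH34 list alone, 640 lay there, close to the share of union regions. As a share of the union regions of a chromosome, read against 4.64% over all, members were fewest on chromosome 3, with 3.29% (366 of 11113, Wilson interval 2.98 to 3.64%). They were most frequent on chromosome 25, with 12.1% (101 of 838, 10.0 to 14.4%), on chromosome 16, with 10.3% (19 of 185, 6.67 to 15.5%), and on chromosome 27, with 10.2% (141 of 1389, 8.67 to 11.9%). Each of chromosomes 13 to 28 held more members than HH30-only regions, and each of chromosomes 1 to 12 held fewer. Around this divide some differences were small, with overlapping intervals. Members and HH30-only regions numbered 150 and 147 on chromosome 14 and 136 and 125 on chromosome 20. They numbered 166 and 177 on chromosome 10 and 170 and 182 on chromosome 11. On chromosome 25 there were 6 HH30-only regions for 101 members, and on chromosome 3 there were 780 for 366.

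The same order held at matched strength up to percentile 50. In the lowest 10 percentiles of HH34, 37.5% of regions on chromosomes 11 to 28 had no HH30 peak, against 28.9% on chromosomes 1 to 5. Between percentiles 20 and 30 the shares were 20.2% and 12.9%. Above percentile 60 they were alike, at 0.662% and 0.639% between 60 and 70. Regions in all 4 lists also differed by chromosome. Their median change was 2.84 in OFM and 2.98 in dorsal retina on chromosome 25 and 2.45 and 2.19 on chromosome 27, against −1.25 and −2.46 on chromosome 3.

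**Figure D4:**
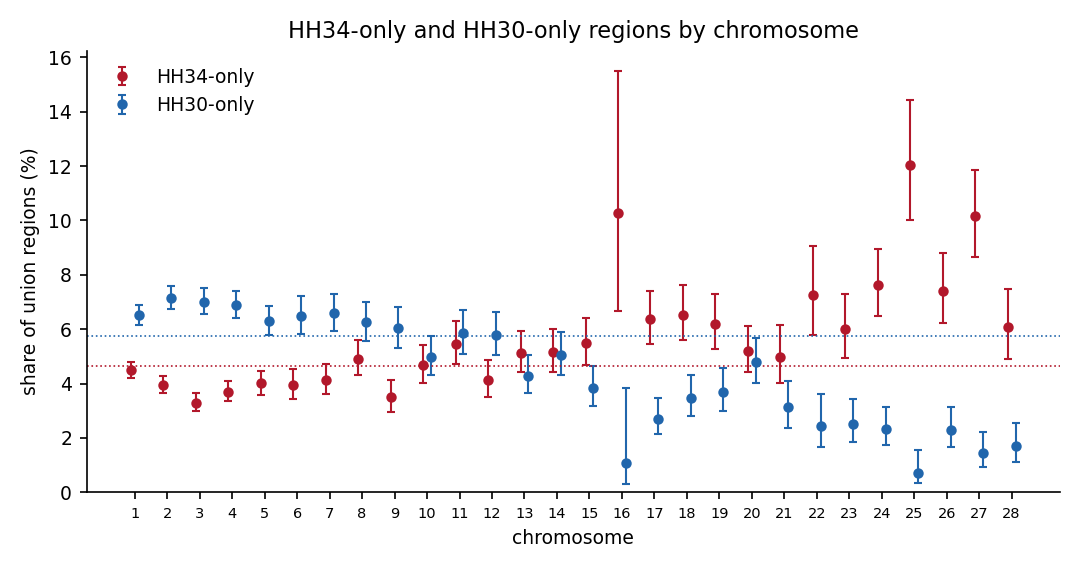
HH34-only (red) and HH30-only (blue) regions as a percent of the union regions (y) of chromosomes 1 to 28 (x). Bars are 95% Wilson intervals for counting error, and dotted lines are the shares over all chromosomes, 4.64% and 5.76%. Red points lie above blue points from chromosome 13 onward, with overlapping bars on some chromosomes such as 14 and 20.

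Within chromosomes, members gathered toward the ends. Ends were taken as the first base and the last peak of any list. On chromosomes 1 to 5, 17.4% of members lay within 5 Mb of an end, against 11.2% of regions in all 4 lists and 6.95% of HH30-only regions. As a share of union regions, members fell from 8.11% in the outer 1 Mb (153 of 1886, Wilson interval 6.96 to 9.43%) to 5.62% between 2 and 5 Mb and to 3.70% beyond 20 Mb. HH30-only regions went from 2.70% to 7.15% over the same distance. Single chromosomes did not all follow the pooled fall of members. From the outer 1 Mb to between 1 and 2 Mb, the member share rose from 9.34% to 12.2% on chromosome 1. It dropped from 11.2% to 1.80% (3 of 167) on chromosome 2. Chromosome 3 had 4.72%, then 2.88%, then 5.02% between 2 and 5 Mb. All 10 ends of chromosomes 1 to 5 had a member share above the 3.67% of the parts further inside, pooled over these chromosomes. The start of chromosome 1 had the highest, 10.9% (74 of 679 regions). The start of chromosome 3 had the lowest, 3.69% (Wilson interval 2.49 to 5.43%), hardly above the pooled inner value. The inner part of chromosome 3 itself had 3.13%, which that interval covers.

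The outer 1 Mb looked alike in all classes of chromosomes. Its member share was 8.11% on chromosomes 1 to 5, 7.74% on 6 to 10 and 8.13% on 11 to 28. Over 5 Mb from an end, the shares were 3.67%, 3.68% and 4.05%, and the intervals of the first and the last overlapped (3.52 to 3.83% and 3.63 to 4.52%). The difference between large and small chromosomes, 3.96% against 6.07% in all, was therefore much smaller between regions at like distance from an end. Small chromosomes have few positions over 5 Mb from an end, which held 7626 of the 35985 union regions on chromosomes 11 to 28. Base composition and gene content along the chromosomes were not analysed here, and their part in this pattern was not tested.

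**Figure D5:**
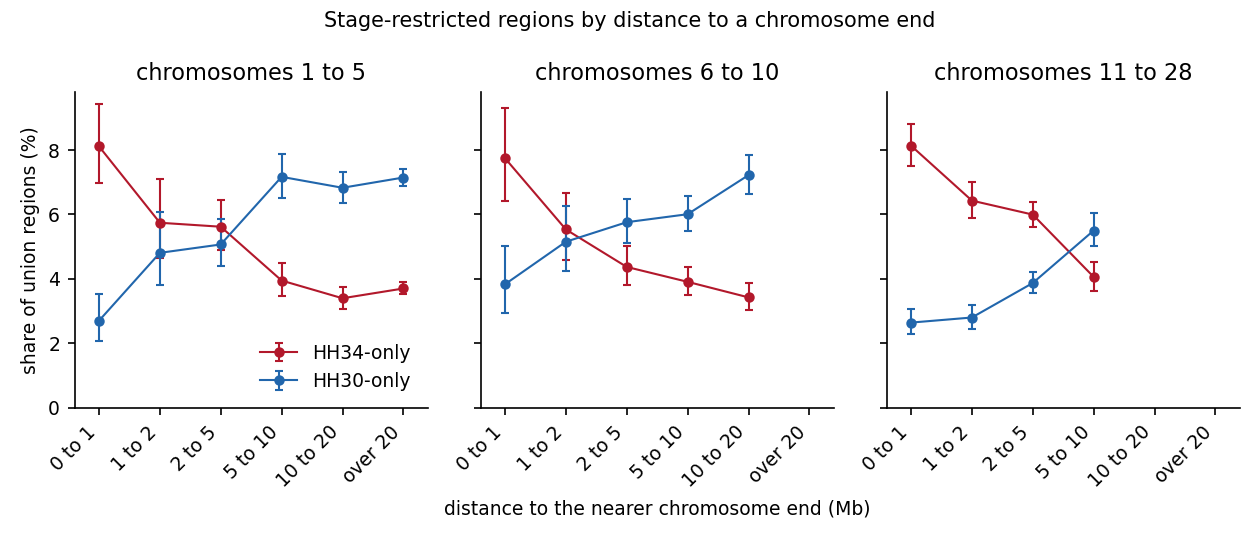
HH34-only (red) and HH30-only (blue) regions as a percent of union regions (y) by distance to the nearer chromosome end in Mb (x), for 3 classes of chromosomes. Bars are 95% Wilson intervals for counting error, and steps with fewer than 1000 union regions are not drawn. In the outer 1 Mb the HH34-only share is 8.11%, 7.74% and 8.13%.

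These results rest on 1 joint call per group, so an effect of a single replicate cannot be seen. Stage is also not separate from embryo set, since each stage came from its own pools.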

How the data were processed

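ATAC-seq was run on 12 libraries, 3 in each of 4 groups. Per the labels, the authors made 1 joint peak list per group from its 3 replicates with Genrich. The submitters' processing notes name, without role or order, Trim Galore, cutadapt 1.16, FastQC, Bowtie2 2.3.4.3, Bowtie, SAMtools 1.6, Genrich 0.6 and deepTools 3.5.0, and the builds galGal6 and GRCg6a. Settings are not given in the sources used here, including any Tn5 shift. Each can change the number, width and summit of peaks. Coordinates are as in the lists, taken as GRCg6a and counted from 1. No GRCg6a genome or annotation was at hand, so genes, base composition, motifs, marker lists and sequences were not analysed here. The gene table at hand is GRCg7b, another build, and peaks lie past its last gene on 21 chromosomes.

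Each deposited list gives the authors' area score per peak, with minima just above 200. It was used as a rank within a list alone. The percent, or percentile, of a list was computed from this deposited score. The −log10 q at the summit is the authors' value as deposited. The strongest peak of a region in a list stood for it.

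Merging, distances and shares were computed with Python 3.11.15, pandas 2.3.3 and scipy 1.17.1 and checked on simulated lists. Distances are bases between edges. Named regions are the 10 with the best worse rank, the 3 most remote in the upper 50% of both lists, the 3 weakest, the longest runs (4 tied) and the densest window. The nearest region to an HH30 peak, the other windows, strength classes and chromosome ends were added after values were seen. The change of shared regions near members, the kinds of adjacent region and the counts within 50 kb were also not planned. The members and lists were chosen with earlier results of these data known.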

Additional observations from a re-analysis of the deposited data

Results flagged for a closer look

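The rule for members left out chromosomes Z, W and 30 to 33, which also held regions with a peak in both HH34 lists and none at HH30. On Z and on 30 to 33 the share of such regions was above the limit that a count of 0 allows. On W the interval of the share reached below that limit, 2.42%. Chromosomes 30 to 33 held 313 such regions among 1888 (16.6%) and 14 HH30-only regions. Their share was above that of every chromosome from 1 to 28. Chromosome Z held 237 among 5932 (4.00%) and W held 4 among 124 (3.23%, 1.26 to 8.00%).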

How the results depend on the processing

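The count of 5559 members stayed within 1.5 times under 5 of 9 settings. It became 2509 when the upper 50% of each list was kept, 130 when both HH34 peaks had to be in the upper 50% with no HH30 peak of any rank, 3284 when no HH30 peak lay within 1000 bp, and 2861 without chromosome ends (5 Mb), a setting added later. All but the first only remove members by construction. The first drops weak HH30 peaks as well, so regions over such a peak enter it. Under these settings, in this order, the share on chromosomes 11 to 28 was 43.0%, 34.6%, 34.9% and 10.8%, the last because small chromosomes lie mostly near an end. The median distance to HH30 was 2366, 1604, 3225.5 and 1828 bp.

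Joining at 50% reciprocal overlap gave 37.4% on chromosomes 11 to 28, a distance of 495 bp, percentiles of 22.5 and 27.7 in OFM and dorsal retina, 61.8% of members higher in dorsal retina, 15.6% within 5 Mb of an end (chromosomes 1 to 5) and 45.5% of neighbours within 500 bp higher in both tissues. Joining across 200 bp gave 37.9%, 1844 bp, 15.9% and 61.1% for the share on chromosomes 11 to 28, the distance, the ends and the neighbours. The 130 strong members had percentiles of 57.9 and 64.5, a summit distance of 3 bp, 74.6% higher in dorsal retina, 14.3% near ends (of 63) and 75.0% of neighbours higher (of 20). Summit distance was also 3 bp in the upper 50% of each list. A −log10 q of at least 5 gave 1887.5 bp to HH30, 4 bp between summits, 71.2% higher in dorsal retina and 15.5% near ends. Equal list length gave 65.2% higher in dorsal retina, and rank number in place of percentile 77.1%. The dorsal percentile was 24.4 without HH30 peaks within 1000 bp. Without ends it was 23.1, with 67.2% higher in dorsal retina and 57.7% of neighbours higher. Over 50% of members were higher in dorsal retina in each setting run. The causes of these shifts were not tested beyond what each setting removes.

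No paired analysis was possible because each group has 1 joint call with no value per replicate. Leaving out replicates, gene positions, base composition, motifs and gene lists were not run.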

Other observations

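Members lay among about as many shared open sites as those sites themselves. Within 50 kb on either side, a member had a median of 11 regions with a peak in all 4 lists, as did those regions themselves, while HH30-only regions had 8. On chromosomes 1 to 5 the medians were 8 for members, 8 for regions in all 4 lists and 6 for HH30-only regions. On chromosomes 11 to 28 they were 16, 17 and 12. Of the members, 85 (1.53%) had no such region within that distance, 60 of them on chromosomes 1 to 5, against 0.933% of regions in all 4 lists. On chromosomes 11 to 28 these shares were 0.916% and 0.222%.

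Regions called in a single HH34 list lay as near to HH30 peaks as members did. The median distance was 1304.5 bp for those in dorsal retina alone and 1410.5 bp for those in OFM alone, against 1456 bp for members, and their median widths were 222 and 205 bp.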
